A study of Mus musculus with 69 samples.

Results

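Hippocampal gene expression was compared between 5 female PSUK mice given a TLR7 inhibitor and 3 female PSUK controls, which together are 8 of the 69 libraries of a mouse series on TLR7, sex and demyelination. The members were chosen by their labels for sex, genotype and treatment and not by measured values, although earlier results of these data were known. All 8 mice carried the genotype labelled PSUK+, which the labels do not describe further, and the inhibitor, its dose and its duration are not named there. The controls were 5.50, 5.50 and 6.85 months old and the inhibitor mice 5.50, 6.06, 6.06, 6.85 and 6.85 months old, so the 6.06-month age had no female control; the age of control replicate 1 carries no unit in the labels and was read as months. The 9 male PSUK libraries, 3 controls and 6 given the inhibitor, were measured in the same table and serve below as the comparison for sex. Of these males 8 were 5.50 and 1, given the inhibitor, 6.06 months old, and none was 6.85 months old, so a comparison of the sexes is also one of ages.

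TLR7 is a receptor of endosomes and lysosomes that binds single-stranded RNA, reaches these compartments with the help of the chaperone protein UNC93B1 and is found in the brain mainly in microglia, the resident macrophages. Once engaged it signals through the adaptor MYD88 and the kinases IRAK4 and IRAK1 to NF-kB, which turns on cytokine genes, and to the transcription factors IRF5 and IRF7, which turn on type I interferon genes. Secreted interferon then raises a wide set of interferon-stimulated genes in neighbouring cells. An inhibitor of TLR7 would act at the first step of this chain, and the comparison asks which transcripts of the hippocampus differed with it in females.

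The libraries were made from 3′ ends of polyadenylated RNA, and total counts ran from 14.9 to 20.5 M in the 8 female libraries. Levels are given as CPM, a gene's counts divided by the library's total count and scaled by the same constant in every library. Although the labels describe the RNA as nuclear and isolated from microglia, the libraries held hippocampal tissue RNA: summed CPM of 30 excitatory neuron and synapse genes was 22665 to 31227, of 21 astrocyte genes 6198 to 17255 and of 22 homeostatic microglia genes 709.8 to 1319. C1ql2, which marks dentate granule cells, stood at 71.8 to 186 CPM and Fibcd1, which marks CA1 pyramidal cells, at 92.6 to 225 CPM. Xist, the RNA of the inactive X chromosome, was at 282 to 753 CPM in all 8 libraries, while the Y-linked genes Kdm5d and Uty did not exceed 0.125 CPM, as the labelled sex requires. The share of counts from mitochondrial genes varied within both groups, at 4.89, 10.5 and 10.2% in the controls and 4.62, 3.49, 15.7, 7.41 and 9.41% in the inhibitor libraries. No pair of libraries of a group was as alike as counting noise alone allows. In such bulk RNA, fewer cells of a type and less RNA per cell cannot be told apart.

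Of 17128 genes tested, 15 changed with the inhibitor in females at an adjusted p under 0.05 (0.0876% of all genes), 3 higher (0.0175%) and 12 lower (0.0701%). The higher genes were Vgll3, Dio3 and Plagl1, with log2 fold changes of 1.0 to 1.76. The lower genes fell by 0.54 to 1.55 on the log2 scale and included the transcription factor genes Nr2c2 and Zbtb20 and the nuclear RNA Malat1. Each change is on the log2 scale, ± its standard error, gene list counts are edgeR's unless another tool is named, and adjusted p-values come from edgeR's quasi-likelihood test with Benjamini-Hochberg adjustment over all genes. In all 15 genes the 5 inhibitor libraries lay wholly above or wholly below the 3 controls, which held for 5.59% of all genes (2.15% on the higher and 3.44% on the lower side).

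The number of calls depended on single libraries and on the model. In edgeR, leaving out control replicate 1 or control replicate 3 left 0 genes called, with 2726 and 1041 at an unadjusted p under 0.05. No gene was called either when the 8 female libraries were fitted alone (1323 at an unadjusted p under 0.05), when the age cohort entered as a factor (1847) or when the level of the choroid plexus gene Ttr entered as a covariate (1179). Leaving out control replicate 2 gave 38 called genes, leaving out inhibitor replicate 3 gave 93, and leaving out inhibitor replicate 2, 4 or 5 gave 6, 7 and 7. The male libraries enter the estimate of spread, and leaving out male control replicate 1 or 2 gave 8 and 6, and male inhibitor replicate 1, 2, 3, 4 or 6 gave 9, 5, 6, 6 and 5. The mitochondrial share as a covariate gave 1081 called genes, DESeq2 159 and limma voom with sample quality weights 4459, with all 15 genes among them each time. At an unadjusted p under 0.05 the edgeR fit held 1982 genes (11.6%), 874 higher (5.1%) and 1108 lower (6.47%).

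Dio3 encodes the type 3 deiodinase, which inactivates thyroid hormone, and is an imprinted gene (chromosome 12, 110279068 to 110281097, plus strand, GRCm38). It stood at 1.47, 3.05 and 1.52 CPM in control replicates 1 to 3 and at 8.13, 9.7, 6.52, 4.74 and 6.43 CPM in inhibitor replicates 1 to 5. Every inhibitor library was above every control, and the change was 1.74 ± 0.29 (edgeR adjusted p = 0.0272). Vgll3, a cofactor of TEAD transcription factors (chromosome 16, 65815257 to 65866368, plus strand), was at 1.6, 4.27 and 1.64 CPM in the controls and at 8.23, 11.6, 5.31, 12 and 8.21 CPM with the inhibitor, a change of 1.76 ± 0.31 (edgeR adjusted p = 0.0429). Plagl1, an imprinted zinc finger transcription factor gene (chromosome 10, 13060504 to 13131694, plus strand), was at 9.84, 16.1 and 13 CPM against 28.6, 38.5, 17.7, 29.9 and 22 CPM, a change of 1.0 ± 0.18 (edgeR adjusted p = 0.0426). In all 3 genes control replicate 2 was the highest control and lay nearest to the inhibitor libraries; it was also the control with the most choroid plexus RNA, described below. Both male groups overlapped the female inhibitor range for these genes, with Dio3 at 3.28 to 7.5 CPM in male controls and 4.23 to 5.29 CPM in male inhibitor libraries, so that the 3 female controls were the low libraries among all 17.

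Among the 12 lower genes, Nr2c2 had the smallest p. It encodes the orphan nuclear receptor TR4 (chromosome 6, 92091390 to 92174294, plus strand) and was at 83.2, 79.2 and 78.1 CPM in the controls against 56.5, 43.9, 50.3, 48.6 and 55.7 CPM with the inhibitor, a change of -0.69 ± 0.10 (edgeR adjusted p = 0.0145). The highest inhibitor library lay below the lowest control by more than the range within either group. Lonrf3, a RING finger protein gene (chromosome X, 36328353 to 36362341, plus strand), was at 12.7, 11.2 and 12.7 against 5.6, 6.27, 6.86, 6.73 and 7.38 CPM, a change of -0.93 ± 0.14 (adjusted p = 0.0145). Zbtb20, a zinc finger repressor that shapes hippocampal neurons in development (chromosome 16, 42875881 to 43642602, plus strand), was at 269, 228 and 280.4 against 192, 154, 145, 164 and 149.6 CPM, a change of -0.74 ± 0.11 (adjusted p = 0.0145). The highest inhibitor library for Zbtb20, replicate 1, was still below the lowest control. Nr2c2 overlaps the gene Mrps25 and Zbtb20 overlaps several antisense and pseudogene models, and whether counting used strand is not given in the sources used here.

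**Figure D1:**
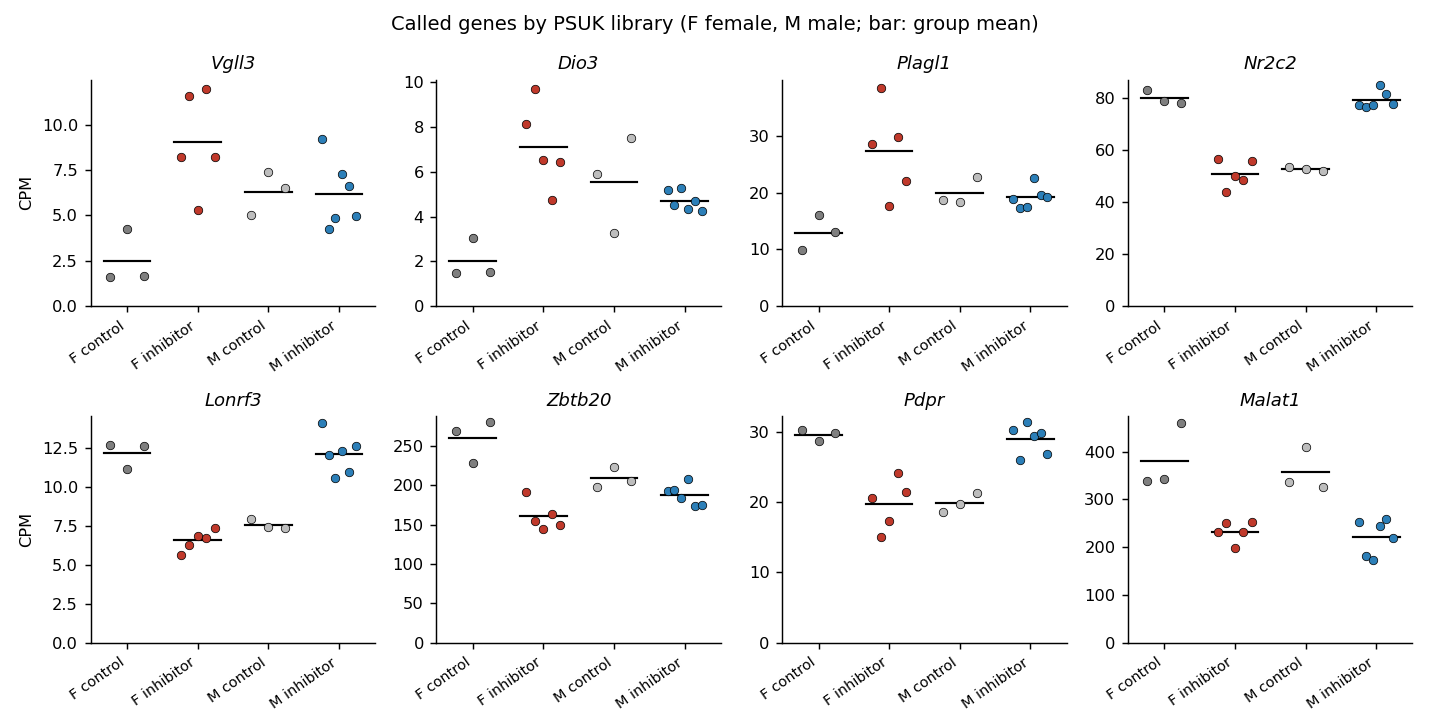
Level of 8 called genes in each PSUK library, as CPM on a linear axis from 0, for female (F) and male (M) control and inhibitor groups; points are libraries and bars are group means. Female inhibitor libraries lie above all 3 female controls for Vgll3, Dio3 and Plagl1 and below them for the other 5 genes, and Malat1 is lower with the inhibitor in males as well.

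Malat1, an abundant noncoding RNA of nuclear speckles (chromosome 19, 5795690 to 5802672, minus strand), was at 338, 342 and 459 CPM in the controls and 231, 249.9, 198, 231 and 253 CPM with the inhibitor, a change of -0.76 ± 0.14 (edgeR adjusted p = 0.0441). Of the 15 called genes it was the only one whose change did not differ from that in males at an adjusted p under 0.05: males had -0.59 ± 0.14 (adjusted p = 0.121), with 327 to 409 CPM in 3 controls and 172 to 259 CPM in 6 inhibitor libraries, again without overlap. Averaged over the sexes, a contrast added after seeing the data, 2 genes were called (0.0117%), both lower: Malat1, at -0.67 ± 0.10 (adjusted p = 0.0145), and the noncoding gene 9530059O14Rik, named here because the count is small, whose change was -1.66 in females and -2.19 in males. Malat1 was the 1 called member among 9 nuclear noncoding RNAs on a list; of the other 8, 6 lay below 0 and 2 above, with Meg3 at -0.19 ± 0.21 and Neat1 at -0.03 ± 0.20.

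Of the remaining lower genes, Lrrc7 encodes densin, a scaffold of the postsynaptic density, and was at 88.7, 71.1 and 79.6 CPM against 60.9, 61.1, 50.3, 51 and 56.1 CPM, a change of -0.56 ± 0.10 (edgeR adjusted p = 0.0432). Pdpr, the regulatory subunit of pyruvate dehydrogenase phosphatase, fell from 28.6 to 30.2 to 15.1 to 24.1 CPM (-0.63 ± 0.12), and Pura, a single-stranded nucleic acid binding protein gene, from 46.2 to 58.3 to 34.8 to 42.6 CPM (-0.54 ± 0.09). Soga1 fell from 42.8 to 56.9 to 22.7 to 36.2 CPM (-0.84 ± 0.13), and Tcp11l1, which overlaps Cstf3 on the other strand, from 27.8 to 32.8 to 13.4 to 22.4 CPM (-0.87 ± 0.15). The other 3 are predicted transcripts outside the naming rule and were singled out after their values were seen: Gm10010 (-1.55 ± 0.24), Gm45640 (-1.23 ± 0.23) and Gm10524 (-1.04 ± 0.19). Gm45640 lies within Chd9 on the same strand and Gm10524 overlaps Zfp236 on the opposite strand, so their reads may come from those genes' transcripts.

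The genes next in order of p, which did not pass the adjusted threshold, were Mrap2 (1.1 ± 0.22, adjusted p = 0.0668), a melanocortin receptor accessory protein gene, and Slc5a3 (0.88 ± 0.18, adjusted p = 0.0687), the sodium-coupled myo-inositol transporter gene, on the higher side. Mrap2 was at 2.24, 2.37 and 2.47 CPM in the controls and 5.99, 4.72, 4.3, 5.55 and 5.66 CPM with the inhibitor, with little spread in either group. Cpne2, Nr2f2, Sod3, Cmtr1, Igip, Spint2 and Pcolce completed the 12 named genes of that direction, at 0.52 to 1.28 and adjusted p of 0.0809 to 0.102. Cmtr1, a methyltransferase of the messenger RNA cap that is itself interferon-inducible, was at 7.79, 7.53 and 7.08 against 11.4, 10.7, 8.6, 12.7 and 12.2 CPM. On the lower side were Notch3 (-0.90 ± 0.17, adjusted p = 0.0508), the Notch receptor of pericytes and smooth muscle, Nhlrc2 (-0.71 ± 0.14, adjusted p = 0.0518) and Nt5c1a (-1.19 ± 0.23, adjusted p = 0.055), a cytosolic nucleotidase gene. Notch3 was at 14.8, 16.3 and 12.6 CPM in the controls and 7.36, 6.47, 8.2, 9.29 and 8.72 CPM with the inhibitor.

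The choroid plexus genes had the largest median change of the 41 gene lists. The amount of this tissue in a library was read from these same genes, so it cannot be told apart from treatment. The choroid plexus is the epithelium that secretes cerebrospinal fluid and lies against the hippocampus, and Ttr, its transthyretin gene, is its most abundant transcript. Ttr was at 20.2, 1386 and 16.9 CPM in the controls and 4695, 3858, 3370.0, 4171 and 4485 CPM with the inhibitor, so control replicates 1 and 3 were nearly free of it and control replicate 2 was intermediate. The groups did not overlap, but the spread among controls left the change of 3.05 ± 1.35 uncalled (edgeR adjusted p = 0.401). All 20 list genes lay above 0, with a median of 2.07 against -0.01 over all genes. Of them edgeR called 0, DESeq2 2 and limma voom with sample quality weights 11. In edgeR 16 were higher at an unadjusted p under 0.05 (5.1% of all genes). The groups did not overlap in 9 (2.15% of all genes do so on the higher side). Kcnj13, a potassium channel gene of this epithelium, was at 0.319 to 3.58 CPM against 11.6 to 18.4 CPM (3.21 ± 0.84, adjusted p = 0.172). Igfbp2, which meningeal cells also make, was at 31.6, 66.9 and 33.3 against 124, 87.2, 98.3, 114 and 117 CPM (1.24 ± 0.31, adjusted p = 0.124). Without control replicate 2 the median was 4.46 and edgeR called 4 of the genes. The summed list was low in 3 male inhibitor libraries too, at 322, 1163 and 2069 CPM against 4773 to 5381 CPM in male controls. With Ttr as a covariate the list's median was -0.32 and no gene of the 17128 was called. Ttr separates the female groups fully, but it also varied among the female controls. The covariate thus overlaps with treatment in females without being identical to it, and their parts cannot be fully told apart.

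**Figure D2:**
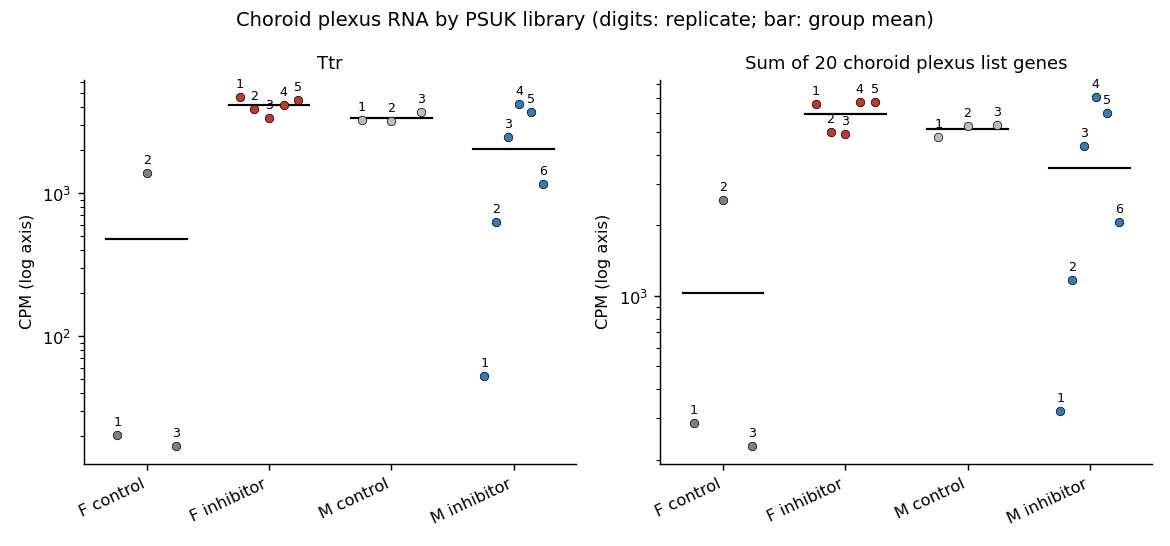
Ttr and the sum of 20 choroid plexus genes in each PSUK library, as CPM on log axes; points are libraries with their replicate number and bars are group means. Female control replicates 1 and 3 and male inhibitor replicate 1 are lowest, and all 5 female inhibitor libraries hold 4904 to 6745 CPM of the list.

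The pituitary hormone genes Prl and Gh marked another pair of libraries. Prl was at 70.3 CPM in control replicate 3 and 97.2 CPM in inhibitor replicate 5, against at most 13.8 CPM in the other 6 female libraries, and Gh was at 75.5 and 30.4 CPM in the same libraries. Pomc was high in control replicate 3 alone, at 48.1 CPM, and at 2.0 to 7.22 CPM elsewhere in females, inhibitor replicate 5 included (-2.9 ± 0.63, edgeR adjusted p = 0.098). Whether choroid plexus or pituitary RNA had a part in other results was not tested beyond the Ttr covariate.

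The receptor and its signalling chain showed no called gene. Tlr7 itself was low, at 2.49, 2.16 and 2.21 CPM in the controls and 1.46, 1.16, 1.68, 3.24 and 3.31 CPM with the inhibitor, and the groups overlapped (-0.13 ± 0.38, adjusted p = 0.917). Of 23 endosomal TLR signalling genes 0 were called and the median was -0.09. At an unadjusted p under 0.05 were 1 higher and 1 lower (5.1 and 6.47% of all genes). The RNA receptor gene Tlr3 was at 14.4 to 18.1 CPM against 6.72 to 15.5 CPM (-0.52 ± 0.24), and the trafficking gene Unc93b1 at 14.4 to 16.1 against 8.47 to 19.3 CPM (-0.09 ± 0.19). Myd88 was at 0.11 ± 0.19, Irak4 at -0.33 ± 0.29, Irak1 at -0.21 ± 0.17 and Irf5 at 0.09 ± 0.26, each with overlapping groups. Hsp90b1, the endoplasmic reticulum chaperone that folds TLRs, was at 159, 128 and 123 against 205, 207, 137, 196 and 184 CPM (0.39 ± 0.13, adjusted p = 0.269). Cytokine and NF-kB genes, 18 in number, had 0 called, 1 lower at an unadjusted p under 0.05 (6.47% of all genes) and a median of -0.04.

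Most interferon-stimulated genes had a negative log2 value in females given the inhibitor, with 1 inhibitor library high in nearly all of them. Of the list's genes edgeR and DESeq2 called 0, limma voom with sample quality weights 4 and edgeR with the mitochondrial share as a covariate 2. Ifit3, an interferon-induced RNA-binding antiviral protein gene, was at 9.65, 23.1 and 18.3 CPM in the controls and 5.07, 4.2, 11.5, 25.6 and 7.51 CPM with the inhibitor (-0.72 ± 0.43, adjusted p = 0.526). Inhibitor replicate 4 exceeded every control, and replicates 1, 2 and 5 were below every control. Irf7, which amplifies the interferon response, was at 1.15, 5.85 and 3.92 against 2.05, 1.03, 1.48, 6.73 and 2.16 CPM (-0.53 ± 0.48). Isg15, a ubiquitin-like modifier gene, was at 1.47, 2.69 and 2.78 against 1.07, 1.42, 1.34, 5.49 and 2.35 CPM (-0.07 ± 0.44), and the chemokine gene Cxcl10 at 1.28, 1.26 and 1.39 against 0.146, 0.129, 0.739, 3.55 and 1.08 CPM (-0.29 ± 0.68). Among the 5 inhibitor libraries replicate 4 was the highest in each of these 4 genes and replicate 2 or 1 among the lowest.

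Over the list of 61 interferon-stimulated genes tested, 46 lay below 0 with a median of -0.28, against 0.28 in males and -0.01 over all genes in females. At an unadjusted p under 0.05 were 2 lower genes, Mx2 (-1.64 ± 0.46) and Gbp7 (-0.81 ± 0.29), and 1 higher gene (6.47 and 5.1% of all genes). Of the 61 genes, 58 were highest in replicate 4 among the 5 inhibitor libraries. The summed list was at 409, 505 and 450.4 CPM in the controls and 409.9, 375, 366, 699 and 409 CPM with the inhibitor. Without inhibitor replicate 4, 52 of 59 genes lay below 0 with a median of -0.52, and 24 of them had an unadjusted p under 0.05 on the lower side, where 6.06% of all genes had; 0 were called. Without control replicate 2 the median was -0.05 and 37 of 62 genes lay below 0. It was -0.12 without inhibitor replicate 2, -0.13 without the 4 libraries under 5% mitochondrial counts and -0.49 with the Ttr covariate. The size of the list's median thus depended on single libraries and on the model.

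**Figure D3:**
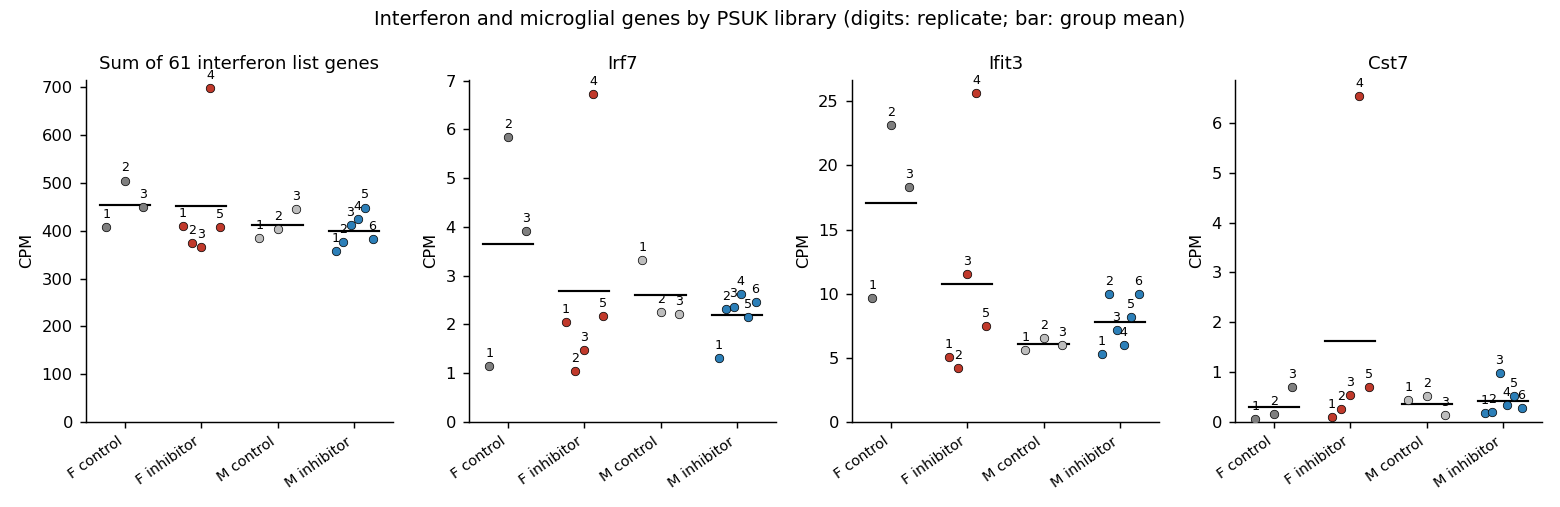
Sum of 61 interferon-stimulated genes and the levels of Irf7, Ifit3 and Cst7 in each PSUK library, as CPM on linear axes from 0; points are libraries with their replicate number and bars are group means. Female inhibitor replicate 4 is the highest library of its group in each panel, and in Cst7 it lies above all other 16 libraries.

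Interferon acts on these genes through ISGF3, a complex that binds the interferon-stimulated response element, a repeat of GAAA spaced by 2 bases. The 250 bases before the start sites of 3 of the named genes are shown for the element's number and place, with matches to GAAA, any 2 bases, GAAA on either strand in capitals (RefSeq, GRCm38.p6; overlapping matches run together):
Ifit3 (chr19:34583279-34583528, plus strand): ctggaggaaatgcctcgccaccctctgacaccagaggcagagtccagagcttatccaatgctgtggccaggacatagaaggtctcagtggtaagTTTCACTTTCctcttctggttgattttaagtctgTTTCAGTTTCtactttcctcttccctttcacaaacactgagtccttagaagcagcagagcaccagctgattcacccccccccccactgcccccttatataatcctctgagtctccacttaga
Isg15 (chr4:156200819-156201068, minus strand): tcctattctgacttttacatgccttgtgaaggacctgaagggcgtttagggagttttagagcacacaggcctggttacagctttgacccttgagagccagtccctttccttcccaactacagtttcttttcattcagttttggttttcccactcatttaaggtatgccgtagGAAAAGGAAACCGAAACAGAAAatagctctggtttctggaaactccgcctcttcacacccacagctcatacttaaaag
Cxcl10 (chr5:92348890-92349139, minus strand): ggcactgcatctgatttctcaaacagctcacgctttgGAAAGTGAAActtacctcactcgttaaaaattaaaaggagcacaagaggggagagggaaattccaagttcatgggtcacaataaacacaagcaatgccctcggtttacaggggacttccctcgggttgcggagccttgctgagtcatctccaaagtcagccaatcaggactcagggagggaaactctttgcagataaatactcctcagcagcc
Ifit3 held 2 matches, Isg15 3 and Cxcl10 1, while the same window of Irf7 held none. Of the 49 list genes with a RefSeq promoter, 19 (38.8%) had a match, against 3.46% of all genes. Among the 46 that were tested, the 17 with a match had a median female change of -0.27 and the others of -0.28, a difference that was not tested.

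Genes raised by TLR7 activation in other mice were described in the same way. In hippocampi of 28 wild-type mice, males of 12.12 and females of 9.6 months and so older than the PSUK mice, gardiquimod, a small-molecule TLR7 agonist, raised 37 genes over saline (0.215%). Of these, 33 were tested in the PSUK table: 24 lay below 0 in females given the inhibitor, 0 were called, and 2 had an unadjusted p under 0.05. Their edgeR median was -0.21, against 50.9% of all genes below 0 and a median of -0.01, and DESeq2 called 0 of the 37. The median in males was 0.21. Ifi27l2a, the most strongly raised of them, was at 1.02, 3.05 and 2.09 CPM in PSUK controls and 0.487, 0.453, 0.672, 4.11 and 0.827 CPM with the inhibitor (-0.74 ± 0.57). Ifit1 was at 2.81, 6.21 and 6.64 against 1.27, 0.97, 1.48, 8.23 and 2.16 CPM (-0.98 ± 0.50), with 4 inhibitor libraries below all controls and replicate 4 above them. Tgtp1, an interferon-induced GTPase gene with a near-identical copy, was on the higher side, at 0.256, 0.316 and 0.316 against 1.02, 0.453, 1.55, 2.18 and 1.27 CPM (2.05 ± 0.59, adjusted p = 0.202), and Bst2, a membrane tether of viruses, was at 0.28 ± 0.30. Many of these genes are also on the interferon list, so the 2 descriptions are not independent.

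No microglial or complement gene was called by edgeR, while DESeq2 called 1 gene of disease-associated microglia and 1 complement gene. Inhibitor replicate 4 again stood apart in some of these genes. Cst7, a cystatin gene of disease-associated microglia, was at 0.0639, 0.158 and 0.696 CPM in the controls and 0.0974, 0.259, 0.538, 6.54 and 0.7 CPM with the inhibitor, and Clec7a, a pattern receptor gene of the same state, at 0.383, 0.685 and 3.92 against 0.633, 0.259, 1.41, 8.79 and 0.827 CPM. Replicate 4 was the highest of all 8 female libraries for both. Of 29 genes of disease-associated microglia 0 were called and the median was 0.10. At an unadjusted p under 0.05 were 3 higher and 1 lower (5.1 and 6.47% of all genes). Trem2 was at -0.21 ± 0.24 and Apoe at -0.16 ± 0.28. Of 22 homeostatic microglia genes, 20 lay below 0 (50.9% of all genes), with a median of -0.18. On the lower side 2 had an unadjusted p under 0.05 (6.47% of all genes). P2ry12 was at -0.27 ± 0.17 and Cx3cr1 at -0.13 ± 0.14. C4b, a complement gene, was at 83.5, 118 and 134 against 52.9, 49.1, 90.1, 199.8 and 95.8 CPM (-0.25 ± 0.34). The class I gene H2-D1 and the invariant chain gene Cd74 were also highest in replicate 4, at 81.7 and 21.1 CPM, against at most 57.7 and 7.08 CPM in the other 7.

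Myelin genes showed no called difference. Of 36 myelin and oligodendrocyte genes 0 were called, and 2 higher and 1 lower had an unadjusted p under 0.05 (5.1 and 6.47% of all genes). The median was -0.01, with Mbp at -0.05 ± 0.32 and Mobp at -0.12 ± 0.26. Mbp, myelin basic protein, was at 2381, 3933 and 3801 CPM in the controls and 2505, 2199, 4877, 3291 and 3661 CPM with the inhibitor. The groups overlapped, and the standard error of Mbp is large enough that a moderate change would not have been detectable. Cholesterol synthesis, which supplies myelin, had 0 of 24 genes called and a median of -0.08. At an unadjusted p under 0.05 were 2 lower genes (6.47% of all genes). Of 25 LXR targets and lipid genes 0 were called, and 5 had an unadjusted p under 0.05 on the lower side (6.47% of all genes), led by the fatty acid synthesis gene Acaca, at 76.1 to 77.6 CPM in controls and 54.1 to 64 CPM with the inhibitor (-0.38 ± 0.10, adjusted p = 0.175), and including Fasn (-0.35 ± 0.14) and Srebf1 (-0.30 ± 0.14).

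Among 41 gene lists, 1 held a gene called by edgeR (Malat1), while DESeq2 called 11 list members in 10 lists, at most 2 in any list; 2 lists had an edgeR median beyond 0.5 in either direction. These were choroid plexus and border-associated macrophages, the macrophages of meninges and vessels. The 9 genes of the latter had a median of -0.81, and 3 were lower at an unadjusted p under 0.05 (6.47% of all genes). Their summed level was 26.7 to 27.96 CPM in controls and 9.25 to 27.4 CPM with the inhibitor, so the groups overlapped. Cd209f was low in both groups, at 0.639 to 0.949 CPM against 0.129 to 0.403 CPM (-1.69 ± 0.48). Pericyte and smooth muscle genes followed, with 5 of 11 at an unadjusted p under 0.05 on the lower side (6.47% of all genes) and 1 called by DESeq2, among them Notch3, Pdgfrb (-0.44 ± 0.15) and Acta2 (-0.58 ± 0.23). All 21 astrocyte genes lay below 0, with a median of -0.32, 0 called and 1 at an unadjusted p under 0.05; Slc1a2, the main glutamate transporter gene, was at 3796, 5400.0 and 5692 against 2509, 1592, 4711, 2935 and 4226 CPM. The summed astrocyte list was lowest in inhibitor replicates 2 and 1, at 6198 and 9537 CPM, which also had the smallest mitochondrial shares, 3.49 and 4.62%; the part of tissue or RNA composition in this was not tested.

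On the higher side, chaperone genes had the most members with a small unadjusted p after the choroid plexus, and none was called. Of 19 unfolded protein response genes, 17 lay above 0 and 9 had an unadjusted p under 0.05 on the higher side (5.1% of all genes), with a median of 0.27; the smallest p was that of Dnajb11 (0.34 ± 0.11, adjusted p = 0.246), a co-chaperone of the endoplasmic reticulum. Sdf2l1 was the 1 gene of them without overlap (2.15% of all genes), at 8.6 to 11.6 CPM in controls and 12.6 to 14.6 CPM with the inhibitor. Of 20 heat shock genes, 19 lay above 0 and 6 had an unadjusted p under 0.05 on the higher side, among them Hspd1 (0.36 ± 0.14) and Hsp90aa1 (0.43 ± 0.18). Of 20 heat shock genes 16 were highest in inhibitor replicate 2, and control replicate 1 exceeded the other controls, at a sum of 5122, 3394 and 3589 CPM against 5841, 7289.6, 3556, 5651 and 4581 CPM with the inhibitor. Inhibitor replicate 2 and control replicate 1 had mitochondrial shares of 3.49 and 4.89%, the smallest of their groups.

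Clock genes lay on both sides. Of 19 circadian genes 6 were lower and 2 higher at an unadjusted p under 0.05 (6.47 and 5.1% of all genes), with 0 called by edgeR and 1 by DESeq2. Per3 was at 43.1 to 47.8 CPM in controls and 29 to 38.6 CPM with the inhibitor (-0.51 ± 0.11, adjusted p = 0.0984), and Dbp, a clock output gene, at 92.7 to 99.6 against 63 to 71.2 CPM (-0.57 ± 0.19), both without overlap. Arntl, which peaks in antiphase to these, was at 0.34 ± 0.16 and Nfil3, the repressor opposing Dbp, at 0.45 ± 0.21. The labels used here give no hour of dissection, and its part was not tested. Of 19 inhibitory neuron genes 16 lay above 0 with a median of 0.31, and 4 were higher at an unadjusted p under 0.05 (5.1% of all genes). The interneuron peptide genes Sst (0.61 ± 0.23) and Npy (0.57 ± 0.23) were among these 4, and 14 of the 19 were highest in inhibitor replicate 2. The summed list was at 1665, 1209 and 1236 CPM in the controls and 1951, 2260, 1077, 1680 and 1384 CPM with the inhibitor. Control replicate 1 and inhibitor replicates 1 and 2, the highest of their groups, had the smallest mitochondrial shares there, 4.89, 4.62 and 3.49%. The part of tissue or RNA composition in this was not tested.

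**Figure D4:**
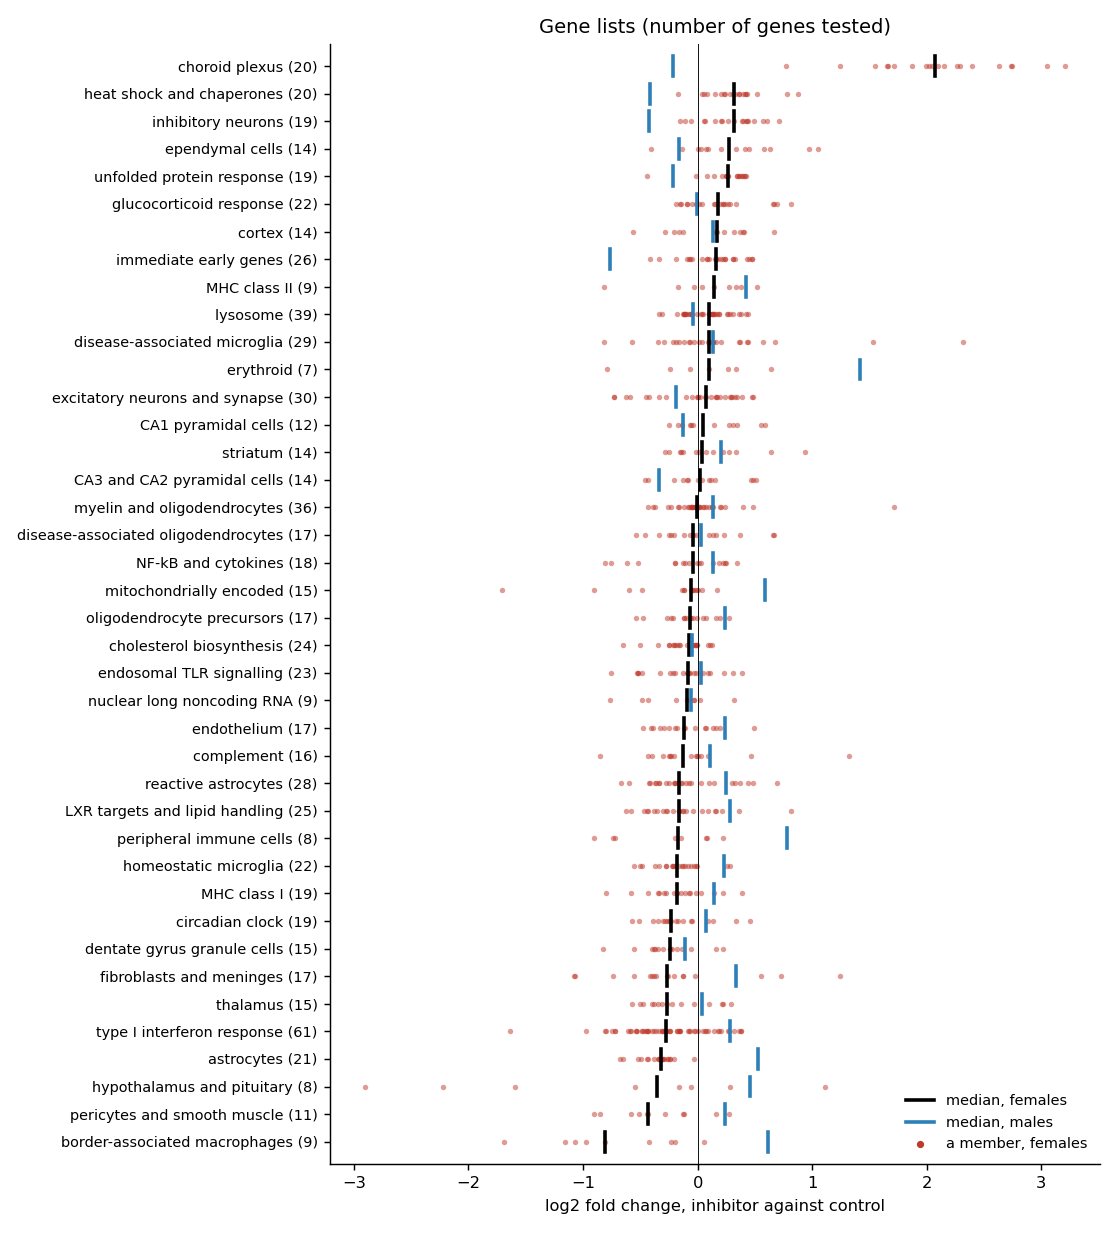
Log2 fold change of the tested members of 40 gene lists between female inhibitor and control libraries (points), with the list's median in females (black bar) and in males (blue bar). The choroid plexus list has a female median of 2.07 with all members above 0, and most lists have female and male medians on opposite sides of 0.

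The female differences were mostly opposite in sign to those of males given the same treatment. Across 17128 genes the log2 fold changes of the sexes, which share no library, had a Pearson r of -0.40 (across genes, which are not independent replicates), and 70.8% of genes had opposite signs. The difference of the effect between the sexes was called for 413 genes (2.41%), 125 higher in females (0.73%) and 288 lower (1.68%), and 410 of the 413 had opposite signs, a direction that choosing genes by this difference favours. Of the 41 list medians 33 were opposite. Of the 15 genes called in females, 11 had the opposite sign in males and 14 differed between the sexes.

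The crossing was visible in single libraries. Nr2c2 was at 78.1 to 83.2 CPM in female controls and 76.9 to 85.1 CPM in male inhibitor libraries, but at 43.9 to 56.5 CPM in female inhibitor and 52.2 to 53.7 CPM in male control libraries (difference -1.39 ± 0.15, edgeR adjusted p = 0.000265). For this gene female controls had the level of treated males, and treated females that of male controls. Lonrf3 gave the same arrangement, with 11.2 to 12.7 and 10.6 to 14.1 CPM in the former and 5.6 to 7.38 and 7.37 to 7.95 CPM in the latter (-1.72 ± 0.20, adjusted p = 0.000604). Over the 15 genes, female controls overlapped male inhibitor libraries in 11 and male controls in 1, while female inhibitor libraries overlapped male controls in 12 and male inhibitor libraries in 7. These genes were chosen because the female groups differ, and overlap also depends on group size, which is unequal in males. The same counts were not made over all genes, so they are a description only. The Y-linked and Xist values match the labelled sex, and no label records a batch, so what else the 4 groups differed in cannot be told apart from treatment. An exchange of treatment labels within 1 sex would turn the direction of that sex's differences and was not tested.

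**Figure D5:**
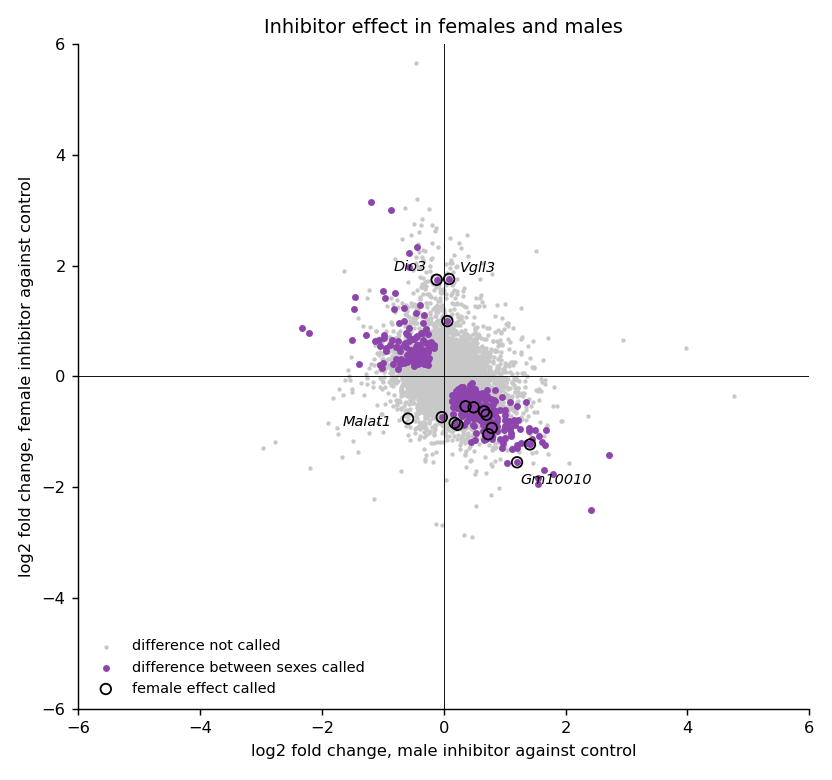
Log2 fold change of each of 17128 genes with the inhibitor in males (horizontal) and in females (vertical); purple points are the 413 genes whose effect differed between the sexes and open circles the 15 genes called in females. Most purple points lie in the upper left and lower right, where the signs are opposite, and Malat1 lies below 0 in both sexes.

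The genes with the largest called difference among those of at least 2 CPM on average, predicted-gene symbols left out, were Hspa1a and Hspa1b on the higher side, near-identical heat shock genes between which reads cannot be divided with certainty. Hspa1a was at 6.96, 2.69 and 4.49 CPM in female controls and 8.82, 14.8, 3.9, 11.9 and 5.66 CPM with the inhibitor (0.88 ± 0.43), against 5.41 to 29.9 CPM in male controls and 2.02 to 3.4 CPM in treated males (-2.33). Sgk1, a kinase gene induced by glucocorticoids, was at 104, 54.9 and 61.4 against 91.2, 102, 74.8, 114 and 213 CPM in females (0.66 ± 0.29) and at -1.5 in males. Tmem267 (2.53) and the orphan receptor gene Gpr101 (2.04) completed the 5 named. On the lower side were the transporter genes Slc47a1 (-3.48), Slc26a7 (-2.9) and Slc22a6 (-2.5), the matrix gene Adamtsl3 (-2.79) and Unc13c (-2.64), a synaptic vesicle priming gene. Unc13c was at 40.3, 78.4 and 67.2 CPM in female controls and 27.5, 11.4, 52.3, 25.6 and 43.6 CPM with the inhibitor, and at 16 to 32 and 57.7 to 100.3 CPM in males.

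The count of 413 moved more than that of any single gene. It was 25 without female control replicate 3, 34 without male control replicate 3, 2500 without female inhibitor replicate 3 and 1 with Ttr as a covariate (3291 at an unadjusted p under 0.05). It was also 1512 and 156 without female control replicates 1 and 2, 119 and 233 without female inhibitor replicates 1 and 4, 127 without male control replicate 2, and 119, 138, 262 and 139 without male inhibitor replicates 2, 3, 4 and 6. Nr2c2 was called in all 28 alternatives of the difference, from -1.24 to -1.44.

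Transcripts with long 3′ ends were common among the lower genes. The longest annotated 3′ untranslated region (GENCODE M21) had a median of 1372 bases over all coding genes tested, and 9.16% exceeded 4000 bases. For the 254 coding genes whose difference between the sexes was called lower in females the median was 2444 bases, with 26.4% over 4000, and for the 115 called higher it was 905 bases, with 3.48% over 4000. Within females alone, coding genes lower at an unadjusted p under 0.05 had a median of 2081 bases and those higher 1020 bases. Zbtb20 has the longest of the called genes, at 23861 bases. Vgll3, called higher, has 5658 and Nr2c2 has 5427. The 8 coding genes called lower in females had a median of 3149.5 bases and the 3 called higher 2593. Length was not entered in any fit, and its part in the differences was not tested.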

How the data were processed

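Libraries were QuantSeq 3′ forward libraries, per the labels' protocols, whose reads fall near the polyadenylated end, so no correction for gene length was made. The authors deposited raw counts per gene as whole numbers without scaling. GRCm38, mm10 and DESeq2 1.38.3 appear in the submitters' processing notes. Not given in the sources used here are the aligner, the counter and its use of strand. The PSUK table names genes by symbol; 54429 symbols were matched to the identifiers and GRCm38 coordinates of the agonist table, 100 of them to several. Every count column used was matched to a sample by its title (0 unmatched).

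Samples were grouped by the labels for sex and treatment. The labels do not say that libraries came from separate animals beyond their numbers, so p-values measure the spread between these samples. All 17 PSUK libraries (14.4 to 21.03 M counts) were fitted together in R 4.3.3 with edgeR 4.0.16 (filterByExpr, TMM, 1 mean per group, robust quasi-likelihood), with a biological coefficient of variation of 0.179, and 17128 genes were tested with 2-sided contrasts at a Benjamini-Hochberg adjusted p under 0.05. The standard error is the fold change divided by the square root of F. CPM uses library totals without TMM. DESeq2 1.42.0 and limma 3.58.1 were alternatives. On counts simulated for 16964 genes of this comparison the fit recovered 66% of genes changed by 1 and 90% of those changed by 2 on the log2 scale, and called 11 unchanged genes. The simulated counts were independent between genes and lacked the library-wide differences in choroid plexus and mitochondrial RNA of the real libraries. These rates therefore cannot be taken to hold for the real comparison.

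The members, gene lists, tests and alternatives were chosen with earlier results of these data known. Named were 24 genes throughout; in each direction up to 12 called genes by fold change with a mean of at least 2 CPM, groups without overlap and no predicted-gene symbol, filled up by smallest p; for each list its called genes and the 3 of highest CPM; 5 genes per direction of the difference between sexes; and the 6 genes most raised by gardiquimod. List members named beyond these have the smallest p in their list, or are pathway genes given for their role, and were picked after their values were seen; some genes that fall under these rules are not reported here. Microglia and wild-type libraries entered no comparison, apart from the choice of the 37 agonist-raised genes in 28 libraries.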

Additional observations from a re-analysis of the deposited data

Results flagged for a closer look

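In the group of 5 inhibitor libraries, 18 of 171 named genes had a library far from the other 4 by Dixon's criterion, which chance meets in about 1 in 20 groups; the genes share libraries and are not independent. Inhibitor replicate 4 was the high one for Irf7 (6.73 CPM), Ifi27l2a (4.11), Cxcl10 (3.55), Ifit1 (8.23), Lgals3bp (58.1), H2-D1 (81.7), H2-Eb1 (4.74), Cd74 (21.1), Cst7 (6.54) and Clec7a (8.79), and for the haemoglobin genes Hbb-bs (37.2) and Hba-a1 (27.2). These interferon and antigen presentation genes, Cst7, Clec7a and the haemoglobin RNA, a marker of blood, were thus high together in this library. The part of blood in this was not tested. Among the 5 inhibitor libraries, replicate 4 was highest for 18 of 29 disease-associated and 11 of 22 homeostatic microglia genes. The sums of these 2 lists were not highest there. The homeostatic list summed to 1128 CPM, against 1185 CPM in inhibitor replicate 5. The disease-associated list summed to 8065 CPM, against 8835 CPM in inhibitor replicate 3. Inhibitor replicate 5 was high within its group for Sgk1 (213 CPM) and the pituitary genes Prl (97.2), Gh (30.4) and Pomc (5.22, far below control replicate 3). Ppp1r1b was low in replicate 2 (65.8 CPM) and Hspa5 in replicate 3 (186 CPM).

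The effect in females differed from that in males, by the interaction test of edgeR at an adjusted p under 0.05, for 43 named genes. Positive differences, female minus male on the log2 scale, were those of Hspa1a (3.21), Hspa1b (2.99), Tmem267 (2.53), Sgk1 (2.16), Gpr101 (2.04), Dio3 (1.86), Pcolce (1.67), Vgll3 (1.67), Spint2 (1.6), Slc5a3 (1.44), Mrap2 (1.42), Sod3 (1.31), Hsp90aa1 (0.99), Plagl1 (0.94), Nr2f2 (0.89), Igip (0.84), Cpne2 (0.82), Bsg (0.74) and Cmtr1 (0.68). Negative differences were those of Slc47a1 (-3.48), Slc26a7 (-2.9), Adamtsl3 (-2.79), Gm10010 (-2.75), Gm45640 (-2.64), Unc13c (-2.64), Slc22a6 (-2.5), F13a1 (-2.47), Gm10524 (-1.77), Lonrf3 (-1.72), Nt5c1a (-1.64), Notch3 (-1.39), Nr2c2 (-1.39), Pdpr (-1.29), Tcp11l1 (-1.1), Lrrc7 (-1.05), Nhlrc2 (-1.02), Soga1 (-1.02), Rora (-0.97), Pura (-0.90), Pdgfrb (-0.86), Zbtb20 (-0.70), Pdgfra (-0.60) and Hlf (-0.58).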

How the results depend on the processing

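Against 15 called genes in females, the count was 0 with the 8 female libraries alone, 0 with the age cohort as a factor, 8 with age as a numeric term, 0 with the Ttr covariate, 1081 with the mitochondrial share as a covariate, 1 without the 4 libraries under 5% mitochondrial counts (the last 3 and numeric age chosen after seeing the data), 159 with DESeq2 and 4459 with limma voom and sample quality weights. It was 16 with RLE factors, 15 with library totals, 22 with no filter on low counts and 21 with at least 10 counts in every library. Leaving out 1 library at a time gave 0 to 93. Nr2c2, Zbtb20, Lonrf3, Soga1 and Gm10010 were called in 23 of these 29 alternatives each and Malat1 in 10. Against 413 genes whose effect differed between the sexes, the count was 221 with the age cohort as a factor, 266 with library totals, 1606 with DESeq2, 4732 with limma voom and sample quality weights, 273 with no filter, 1 with the Ttr covariate, 1729 with the mitochondrial covariate, 86 without the 4 libraries of low mitochondrial share, and 25 to 2500 with 1 library left out. The cause of these changes was not tested. The 37 agonist-raised genes numbered 29 to 47 under the alternatives. No paired analysis was possible because the animal numbers in the library titles are not shared between the groups. With 3 controls, 2 of them nearly free of choroid plexus RNA, genes that varied among the controls had large standard errors, 1.35 on the log2 scale for Ttr.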

Other observations

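Immediate early genes, which neurons switch on with activity, had 0 of 26 members called in females and a median of 0.16, against -0.76 in males; 1 gene had an unadjusted p under 0.05. Arc was at 91 to 395 CPM with the inhibitor, a range that held all 3 female controls, of which the highest was at 247 CPM (0.08 ± 0.54). Glucocorticoid-responsive genes had 3 of 22 members higher and 1 lower at an unadjusted p under 0.05 (5.1 and 6.47% of all genes), with 0 called. For 5 of the 22 the difference from males was called on the higher side (0.73% of all genes). Of 39 lysosomal genes 0 were called, and 5 were higher and 1 lower at an unadjusted p under 0.05 (5.1 and 6.47% of all genes). The smallest p was that of the protease gene Ctsd, at 144 to 167 CPM in controls and 180.1 to 292 CPM with the inhibitor (0.44 ± 0.16, edgeR adjusted p = 0.292). Bsg, an endothelial surface glycoprotein gene, was at 301 to 389 CPM in controls and 419.7 to 601 CPM with the inhibitor, without overlap (0.49 ± 0.13, adjusted p = 0.184).

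Genes of ependymal cells, the ciliated lining of the ventricles, were low in the same 2 controls as the choroid plexus genes: Foxj1, their master regulator, was at 10.5, 21.2 and 8.22 CPM in the controls and 20.9, 18.9, 22.7, 25.2 and 18.8 CPM with the inhibitor (0.63 ± 0.26, adjusted p = 0.368). Of 14 ependymal genes 12 lay above 0 with a median of 0.27, and 0 were called with 3 higher at an unadjusted p under 0.05 (5.1% of all genes). Regional marker lists had medians of -0.27 for thalamus, 0.04 for striatum, 0.17 for cortex, -0.24 for dentate granule cells, 0.05 for CA1 and 0.02 for CA3 and CA2. In each edgeR called 0, DESeq2 called 1 thalamus gene, and 4 of 15 thalamus genes were at an unadjusted p under 0.05 on the lower side (6.47% of all genes).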
